A study of Arabidopsis thaliana with 4 samples.

Results

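*RING1A* and 6 further genes of Polycomb repressive complex 1 (PRC1) were followed in RNA of 14-day *Arabidopsis thaliana* seedlings, 7 genes of the 32833 listed. The 7 are *RING1A* (AT5G44280), its paralog *RING1B* (AT1G03770), *BMI1A* (AT2G30580), *BMI1B* (AT1G06770), *BMI1C* (AT3G23060), *EMF1* (AT5G11530) and *LHP1* (AT5G17690), found by their locus identifiers. *RING1A* was chosen by its measured fall in *mettl4-1* against Col-0, so its difference is described without a test, whereas the other 6 were taken as its partners and paralogs by gene identity, with earlier results of these data known. The compared plants were *mettl4-1*, a T-DNA line of the Saskatoon collection with the insertion in the first exon of *METTL4*, and the wild type Col-0, the background of that line. *METTL4* encodes a member of a family of adenosine methyltransferases. Both genotypes were grown on Murashige and Skoog medium with 16 h of light, and each gave 2 libraries of whole seedlings, made with a strand-specific mRNA kit. *mettl4-1* is a single insertion line, so a difference between the genotypes cannot be told apart from any other difference that the line may carry.

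PRC1 represses developmental genes by placing a single ubiquitin on histone H2A. In Arabidopsis the ligase is formed by a RING1 protein (RING1A or RING1B) and a BMI1 protein (BMI1A, BMI1B or BMI1C), each of which carries a RING finger, a fold held by zinc that recruits the ubiquitin-conjugating enzyme. EMF1 and LHP1 are plant proteins associated with the complex, and LHP1 binds histone H3 trimethylated at lysine 27, the mark of Polycomb repressive complex 2 (PRC2). Known targets of this system include the class I KNOX genes of the shoot meristem, floral homeotic genes, *FLC* and its relatives, and regulators of embryo and seed identity.

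The coding sequences of the RING fingers are shown because they define the 5 ligase subunits and show how far a short read can tell the paralogs apart. They were read from the RefSeq genome TAIR10.1, spliced and written 5′ to 3′ on the coding strand. Capitals mark the codons of the 8 cysteines and histidine that were matched by the spacing of a RING finger. In the BMI1 sequences the next cysteine codon after the second capital one, in lower case, fits that spacing too. A finger starting at the second capital codon is thus also possible there, and which cysteines bind zinc was not tested. The printed sequences lie at chr5:17837689-17838194 (minus strand) for *RING1A*, chr1:945515-945973 (plus) for *RING1B*, chr2:13026492-13028042 (plus) for *BMI1A*, chr1:2081145-2081671 (minus) for *BMI1B* and chr3:8200904-8201425 (plus) for *BMI1C*.
RING1A: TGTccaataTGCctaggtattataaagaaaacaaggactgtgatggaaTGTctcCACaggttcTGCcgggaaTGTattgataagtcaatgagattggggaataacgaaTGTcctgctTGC
RING1B: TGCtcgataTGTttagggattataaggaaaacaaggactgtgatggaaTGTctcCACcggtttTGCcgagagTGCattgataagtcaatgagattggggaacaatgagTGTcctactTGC
BMI1A: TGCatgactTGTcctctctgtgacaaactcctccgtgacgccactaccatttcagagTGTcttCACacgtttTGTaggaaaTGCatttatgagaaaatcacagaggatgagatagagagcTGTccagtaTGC
BMI1B: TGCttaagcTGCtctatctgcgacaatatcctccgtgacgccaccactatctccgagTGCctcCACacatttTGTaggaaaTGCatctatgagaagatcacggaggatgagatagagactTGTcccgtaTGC
BMI1C: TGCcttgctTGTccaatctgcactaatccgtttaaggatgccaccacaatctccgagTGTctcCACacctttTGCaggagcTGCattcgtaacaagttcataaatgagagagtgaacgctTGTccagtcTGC

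As printed, the RING fingers of *RING1A* and *RING1B* were identical at 104 of 120 bases, and those of *BMI1A* and *BMI1B* at 109 of 132. *BMI1C* stood further off, with 67.7% identity to *BMI1A* and 66.9% to *BMI1B*, while *RING1A* and *BMI1A* shared 53.8%. The values for the BMI1 genes also depend on where their fingers are taken to start. Over the whole proteins the identity was 55.4% between RING1A (522 residues) and RING1B (468 residues) and 69.6% between BMI1A and BMI1B. The annotation lists 3 coding sequences for *RING1A*, of which 2 hold the RING finger pattern, and 6 for *RING1B*, of which 5 hold it. Counts per gene do not show which of these forms the reads came from.

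The longest stretch that *RING1A* and *RING1B* share base for base in their coding sequences is 35 bases, and it is printed with 20 bases on either side, since a read confined to it could not be assigned to one of the 2 genes. Capitals mark the 11 positions at which the genes differ. The 75 printed bases lie at chr5:17837341-17837501 on the minus strand for *RING1A* and at chr1:946176-946348 on the plus strand for *RING1B*. They are spliced, so these coordinates span more than 75 bases.
RING1A: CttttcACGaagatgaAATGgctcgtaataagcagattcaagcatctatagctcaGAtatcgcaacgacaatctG
RING1B: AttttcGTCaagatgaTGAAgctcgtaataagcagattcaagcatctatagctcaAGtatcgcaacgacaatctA

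Across all exons, the best match of *RING1A* was *RING1B*, with 74.3% identity over 47.2% of the *RING1A* exons, and the best match of *BMI1A* was *BMI1B*, with 75.7% identity over 39%. Exons of *RING1A* had matches in 339 other genes, *RING1B* among them, and those of *LHP1* in 50. *RING1B*, *BMI1A* and *BMI1B* each had 1. Matches were counted at any length, with simple repeats left unmasked, so their number does not show that reads are shared. The best match of *LHP1* covered 98 bases, 4.8% of its exons. Runs shared base for base were sought between paralogs only. The exons of *RING1B* overlap those of *TPX2* (AT1G03780) on the other strand by 163 bases, 6.4% of their length. *TPX2* had 10.5 and 10.1 CPM in *mettl4-1* and 9.91 and 10.6 CPM in Col-0 (CPM are counts scaled by TMM to a library of 1e6). The strand setting of the counting was not given in the sources used here. The exons of *RING1A* overlap those of AT5G44270 by 8 bases, and that gene had at most 2 counts in any library.

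The libraries held 51919219 and 50862075 counts for *mettl4-1* and 54709289 and 66003824 for Col-0, and 21673 genes passed the filter on low counts. *METTL4*, which checks the labels, had 35 and 46 counts in *mettl4-1* against 355 and 413 in Col-0 (log2 fold change −2.99, standard error 0.14, adjusted p = 8.6e-07, edgeR). Organelle genes took 2.68% and 1.03% of the counts in *mettl4-1* and 0.693% and 0.713% in Col-0, and no PRC1 gene is among them. The leaf markers *RBCS1A* and *RBCS3B* and the root markers *SHR* and *LRX1* were detected in every library, *RBCS1A* at 10720 to 12280 CPM and *SHR* at 15.5 to 16.6 CPM, so shoots and roots were both present. The sources do not say whether the replicates were separately grown, so the p-values measure the spread between these libraries, which may be technical. Beyond counting error, 1504 of 21345 nuclear genes differed between the *mettl4-1* libraries and 162 of 21599 between the Col-0 libraries (chi-square test per gene, adjusted p under 0.05). Each library was kept as a replicate, although such differences do not show that the plants were grown separately. All 4 leaf markers had log2 fold changes below 0. Of these, *RBCS1A* (−0.15), *RBCS3B* (−0.10) and *RCA* (−0.07, named after its value was seen) had an adjusted p under 0.05 (edgeR), as had 2.83% of all genes. The summed level of the 4 markers was 30400 and 31810 CPM in *mettl4-1* and 33230 and 33300 CPM in Col-0.

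*RING1A* (chromosome 5, 17835810 to 17839303, minus strand, TAIR10.1) was measured at 485 and 506 counts in *mettl4-1*, against 7045 and 8496 in Col-0. Normalized for library size, this was 9.59 and 9.83 CPM in *mettl4-1* and 128.1 and 127.6 CPM in Col-0. The 2 libraries of a genotype lay close together and the genotypes were far apart. The mean was 9.71 ± 0.168 CPM in *mettl4-1* and 127.8 ± 0.385 CPM in Col-0 (SD, n = 2 each), so that *mettl4-1* held 7.6% of the Col-0 level (log2 fold change −3.72, standard error 0.03). In these seedlings, fewer cells with the transcript and less transcript per cell cannot be told apart. Of the tested genes, 27 had a lower log2 fold change than *RING1A*, and 0 of the genes with at least its Col-0 level per exon length did.

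**Figure D1:**
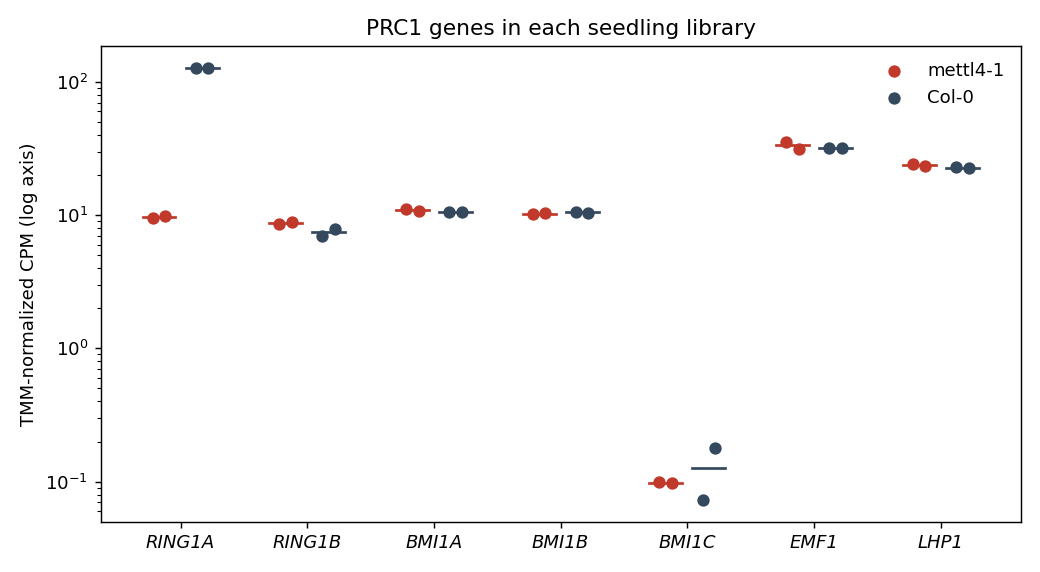
Level of the 7 PRC1 genes in each library, as TMM-normalized CPM on a log axis, with a point for each library and a bar at the mean of the 2 libraries of a genotype, *mettl4-1* left of Col-0. *RING1A* is at 9.59 and 9.83 CPM in *mettl4-1* and at 128.1 and 127.6 CPM in Col-0, while the points of the other 5 tested genes lie close together across the genotypes and those of *BMI1C*, which rest on 4 to 12 counts, are spread.

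The level per exon length places this difference among the partner genes. In RPKM (CPM per kilobase of annotated exon), *RING1A* had 4.48 and 4.59 in *mettl4-1* and 59.8 and 59.6 in Col-0. In *mettl4-1* it stood in the middle of the 6 tested PRC1 genes, after *LHP1* (11.7 ± 0.325 RPKM), *EMF1* (7.25 ± 0.618 RPKM) and *BMI1A* (4.57 ± 0.122 RPKM), and before *BMI1B* (4.10 ± 0.0256 RPKM) and *RING1B* (3.44 ± 0.0658 RPKM). *RING1A* and *BMI1A* were not separated there, since the 4.48 and 4.59 RPKM of *RING1A* overlapped the 4.65 and 4.48 RPKM of *BMI1A*. In Col-0 it stood first, 5.35 times above the next gene, *LHP1* (11.2 ± 0.113 RPKM), with *EMF1* (6.89 ± 0.0403 RPKM), *BMI1A* (4.42 ± 0.0172 RPKM), *BMI1B* (4.198 ± 0.0325 RPKM) and *RING1B* (2.92 ± 0.274 RPKM) below (SD, n = 2 for each). Thus the gene that stood apart from its partners in level did so in Col-0 and not in *mettl4-1*. Of the 21531 tested genes with an annotated exon length, 64.8% and 64.2% had a higher RPKM than *RING1A* in the *mettl4-1* libraries, against 8.0% and 8.1% in the Col-0 libraries. The median gene was at 8.25 RPKM in *mettl4-1* and 8.201 RPKM in Col-0.

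**Figure D2:**
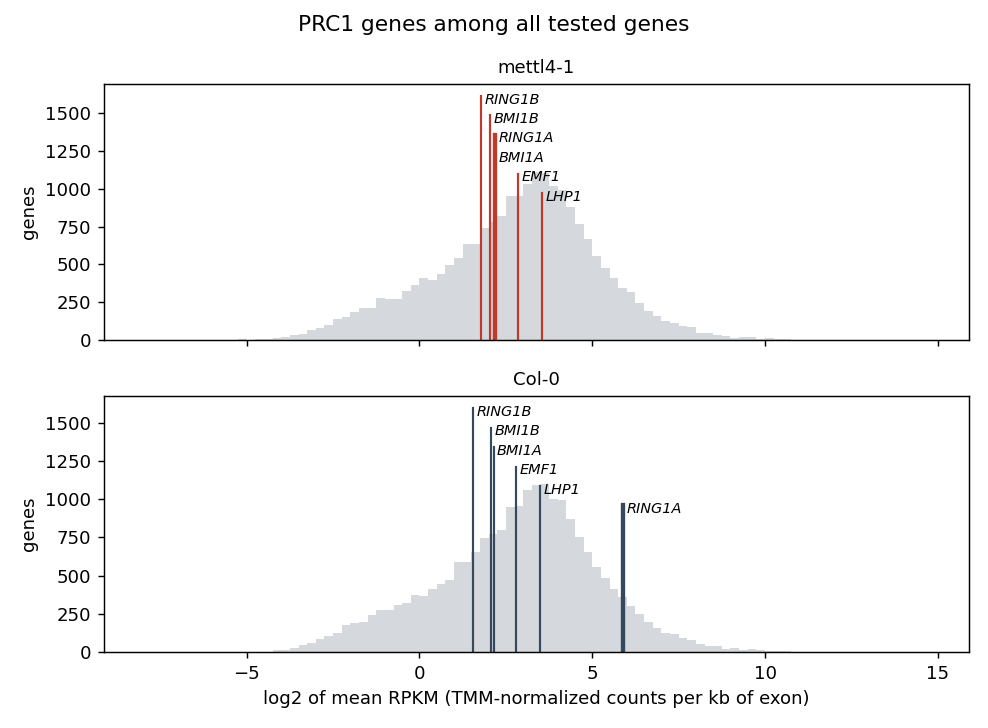
Distribution of the log2 of mean RPKM over all tested genes (grey, genes per bin) in *mettl4-1* (upper) and Col-0 (lower), with a line at each of the 6 tested PRC1 genes. *RING1A*, the thick line, lies among its partners at 4.53 RPKM in *mettl4-1* and to the right of all of them at 59.7 RPKM in Col-0.

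*RING1B*, the other RING1 subunit, was slightly higher in *mettl4-1*, and the difference did not pass the test over all genes. It had 435 and 455 counts in *mettl4-1*, against 381 and 527 in Col-0. Normalized, these were 8.61 and 8.84 CPM in *mettl4-1* and 6.93 and 7.91 CPM in Col-0. Both *mettl4-1* libraries were above both Col-0 libraries, and Col-0 replicate 1 was the lowest. The fold change was 1.17 (95% interval 1.03 to 1.33, unadjusted p = 0.0192, adjusted p = 0.211, from the quasi-likelihood fit of edgeR, adjusted over all tested genes). With a library left out in turn, the log2 fold change of 0.23 lay between 0.14 and 0.33.

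The RING1 level was summed over both paralogs to ask whether *RING1B* made up for *RING1A*. Per exon length, *RING1A* and *RING1B* together had 7.87 and 8.07 RPKM in *mettl4-1*, against 62.5 and 62.7 RPKM in Col-0. The sum in *mettl4-1* was thus 12.7% of that in Col-0. The *RING1A* level differed by −55.2 RPKM between *mettl4-1* and Col-0 and the *RING1B* level by 0.51 RPKM, 0.93% of the size of the *RING1A* difference. Even at the upper bound of its interval, the *RING1B* difference would be 0.97 RPKM, or 1.75% of it. *RING1B* therefore held 43.1% and 43.2% of the RING1 level in the *mettl4-1* libraries, against 4.37% and 4.98% in the Col-0 libraries. *RING1A* was 1.32 times as high as *RING1B* in both *mettl4-1* libraries, and 21.9 and 19.1 times as high in the Col-0 libraries. Since *RING1A* entered these sums and was chosen by its fall, they are a description with no test, and the smallest two-sided p that an exact permutation test of 2 libraries against 2 allows is 0.33.

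**Figure D3:**
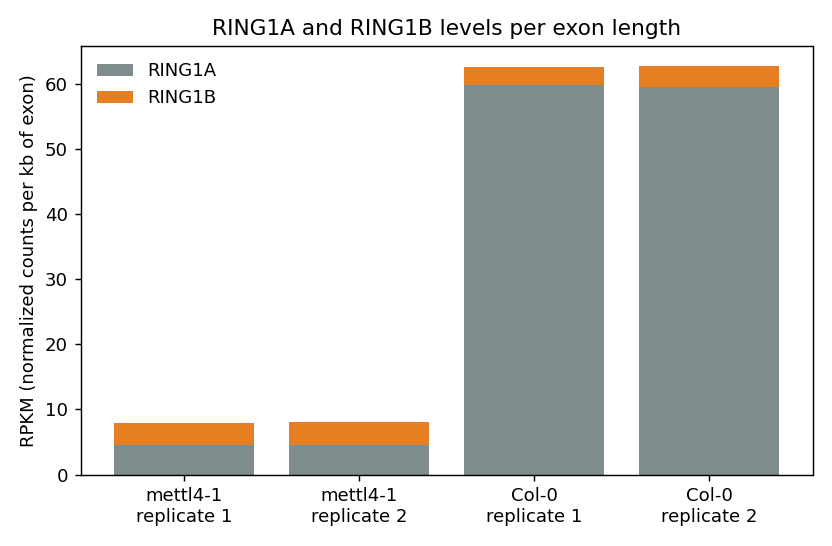
Stacked bars of the *RING1A* (grey) and *RING1B* (orange) levels in RPKM in each library, *mettl4-1* left of Col-0. The bars reach 7.87 and 8.07 RPKM in *mettl4-1* and 62.5 and 62.7 RPKM in Col-0, and the *RING1B* part is of similar height in all 4.

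The BMI1 genes encode the partner subunits of the RING1 proteins, and *BMI1A* and *BMI1B* were at similar levels in both genotypes. *BMI1A* had 11.1 and 10.7 CPM in *mettl4-1*, against 10.6 and 10.5 CPM in Col-0 (fold change 1.03, 95% interval 0.939 to 1.133, adjusted p = 0.792, edgeR). *BMI1B* had 10.2 and 10.3 CPM in *mettl4-1*, against 10.6 and 10.5 CPM in Col-0 (fold change 0.978, 95% interval 0.890 to 1.07, adjusted p = 0.859, edgeR). Their signs were opposite. *BMI1C* was close to absent, with 5 and 5 counts in *mettl4-1* and 4 and 12 in Col-0, and did not pass the filter on low counts. A change of *BMI1C* could not be resolved at this depth, at which 3 counts equal 0.0450 to 0.0593 CPM.

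*EMF1* and *LHP1* encode the chromatin-binding partners. *EMF1* had 35.5 and 31.4 CPM in *mettl4-1*, against 31.9 and 31.7 CPM in Col-0 (fold change 1.05, 95% interval 0.969 to 1.14, adjusted p = 0.577, edgeR). Its groups overlapped, because *mettl4-1* replicate 1 was above and replicate 2 below both Col-0 libraries. The *EMF1* value rested on that pair, with a log2 fold change of 0.16 (adjusted p = 0.0288, edgeR) without *mettl4-1* replicate 2 and of −0.01 without replicate 1. *LHP1* had 24.3 and 23.3 CPM in *mettl4-1*, against 22.9 and 22.6 CPM in Col-0 (fold change 1.05, 95% interval 0.976 to 1.126, adjusted p = 0.55, edgeR). No paralog of EMF1 or LHP1 is among the 7 genes.

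Of the 5 tested genes other than *RING1A*, 0 were called at the thresholds of the study's methods (a change of at least 1.5-fold and an unadjusted p under 0.05), where 1.62% of all tested genes were called. Also 0 of the 5 were called at the same fold with an adjusted p under 0.05 (0.637% of all genes) or at an adjusted p under 0.05 alone (2.83% of all genes), by edgeR or limma-voom. DESeq2 at its defaults gave no adjusted p for 3 of the 5 (*RING1B*, *BMI1A* and *BMI1B*), and without its independent filtering, a setting chosen after the data were seen, it also called 0 of the 5. An unadjusted p under 0.05 from edgeR was reached by 1 of the 5, *RING1B*, and by 15.2% of all genes. The libraries of the genotypes did not overlap for 4 of the 5, as for 45.8% of all genes. The median log2 fold change of the 5 was 0.07, beside 0.0016 over all genes. The intervals of the 5 lay inside a 1.5-fold change in either direction.

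**Figure D4:**
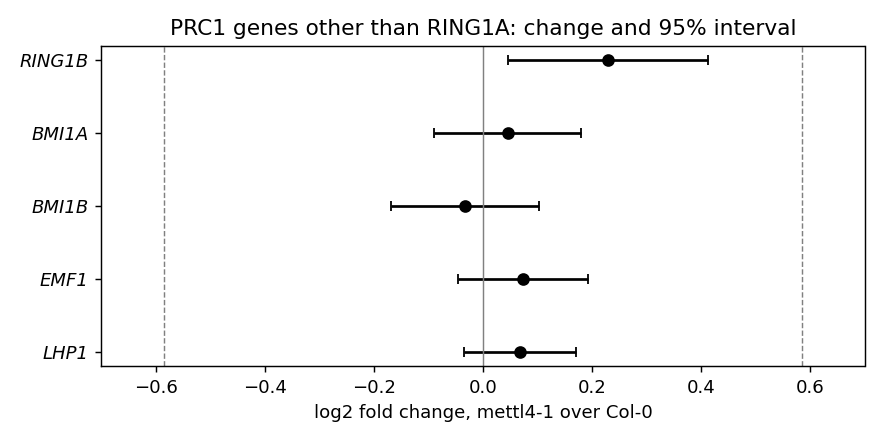
Log2 fold change (*mettl4-1* over Col-0) of the 5 tested PRC1 genes other than *RING1A*, with 95% intervals from the edgeR fit and dashed lines at a 1.5-fold change. The interval of *RING1B*, 0.05 to 0.41, lies above 0 and those of the other 4 span it.

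Genes that work with PRC1 were taken from lists written by function. Of 11 genes for PRC2 subunits and their VEL partners, 8 were tested and 0 had an adjusted p under 0.05 by edgeR or limma-voom, with 0 at an unadjusted p under 0.05. The widest changes there were those of *FIE*, a core PRC2 subunit (log2 fold change 0.09), and *MSI1*, a histone-binding subunit (0.06). All 23 genes for recruiters and partners were tested, among them the VAL proteins, which bring PRC1 to target genes, and the deubiquitinases UBP12 and UBP13, and 0 passed by either tool. At an unadjusted p under 0.05 (edgeR), *LIF2*, *AL6* and *PWO1* were higher and *TRB2* was lower, the first 3 named after their values were seen. These 4 of 23 are a share near the 15.2% of all genes. *VAL3* had a log2 fold change of 0.22 (adjusted p = 0.343, edgeR) and *TRB2*, for a telomere-repeat-binding protein that brings in PRC2, one of −0.16 (adjusted p = 0.159, edgeR). Of 14 antagonists of Polycomb repression, mostly histone methyltransferases of the trithorax type, demethylases and remodellers, 13 were tested and 0 passed by either tool. At an unadjusted p under 0.05 (edgeR), *ATX2* and *REF6* were higher and *ATX1* and *JMJ30* lower, with *REF6* and *JMJ30* named after their values were seen, 4 of 13 beside 15.2% of all genes. The largest changes were those of the H3K4 methyltransferase genes *ATX1* (log2 fold change −0.18, adjusted p = 0.24, edgeR) and *ATX2* (0.13, adjusted p = 0.0936, edgeR). The medians of the 3 lists were 0.00090, 0.02 and 0.02, beside 0.0016 over all genes.

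The KNOX genes keep shoot meristem cells undifferentiated, and are held off in leaves by RING1 proteins. Of the 7 KNOX and CUC genes, all tested, 0 had an adjusted or an unadjusted p under 0.05 from edgeR, and limma-voom called 0 at an adjusted p. *STM*, which maintains the meristem, had 4.0 and 3.28 CPM in *mettl4-1*, against 3.22 and 3.98 CPM in Col-0. *KNAT1* had 12.38 and 11.95 CPM in *mettl4-1*, against 11.33 and 11.98 CPM in Col-0. *KNAT2* had 0.712 and 0.700 CPM in *mettl4-1* and 0.582 and 0.706 CPM in Col-0. The groups of all 3 overlapped. *KNAT6* was at 4.71 and 5.09 CPM in *mettl4-1*, against 4.47 and 4.4 CPM in Col-0 (log2 fold change 0.14, standard error 0.10, adjusted p = 0.544, edgeR). *CUC1*, which sets organ boundaries, had 30 and 30 counts in *mettl4-1* and 18 and 32 in Col-0 (log2 fold change 0.52, standard error 0.29, adjusted p = 0.45, edgeR).

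The floral homeotic genes specify floral organs, and their counts were low, with *SEP1* the highest at 110 to 135 per library. Of 10 listed, 8 were tested, and 0 had an adjusted p under 0.05 by edgeR or limma-voom. At an unadjusted p under 0.05, reached by 15.2% of all genes, 3 were higher in *mettl4-1*, and *AP1* and *PI* of these met the thresholds of the study's methods, met by 1.62% of all genes (*PI* and *SEP1* are named after their values were seen). *AP1* had 28 and 31 counts in *mettl4-1* against 20 and 19 in Col-0 (log2 fold change 0.84, adjusted p = 0.195, edgeR), *PI* had 42 and 50 counts against 25 and 37 (0.82, adjusted p = 0.123), and *SEP1* had 135 and 125 counts against 110 and 127 (0.39, adjusted p = 0.213). *SEP2* had 17 and 24 counts in *mettl4-1* and 16 and 11 in Col-0 (0.84, adjusted p = 0.343, edgeR). The libraries did not overlap for 6 of the 8, beside 45.8% of all genes, and the median log2 fold change was 0.46, beside 0.0016 over all genes.

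*FLC* and its relatives repress flowering, and *FT* promotes it. All 7 genes of this list were tested, 0 passed an adjusted p under 0.05 by edgeR or limma-voom. At an unadjusted p under 0.05 (edgeR), *MAF5*, *FT* and *FLM* were higher in *mettl4-1*, with *FLM* named after its value was seen, 3 of 7 beside 15.2% of all genes. *MAF5* had 42 and 46 counts in *mettl4-1*, against 30 and 34 in Col-0 (log2 fold change 0.71, standard error 0.24, adjusted p = 0.171, edgeR), and met the thresholds of the study's methods, as did 1.62% of all genes. Its neighbour *MAF4* had 44 and 51 counts in *mettl4-1*, against 66 and 68 in Col-0 (−0.25, standard error 0.21, adjusted p = 0.635, edgeR). The 2 adjacent genes thus had opposite signs. *FT* had 9.22 and 10.0 CPM in *mettl4-1*, against 7.602 and 8.09 CPM in Col-0 (log2 fold change 0.29, adjusted p = 0.0768, edgeR).

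Among 14 regulators of embryo and stem cell identity, 6 were tested. An adjusted p under 0.05 was reached by 1 of them with edgeR and limma-voom, beside 2.83% of all genes with edgeR. This gene was *ABI3*, which drives seed maturation. It had 3 and 3 counts in *mettl4-1*, against 30 and 26 in Col-0, and fell to 0.128 times the Col-0 level (95% counting interval 0.045 to 0.296, adjusted p = 0.00965, edgeR). *ABI3* passed the filter on low counts only through Col-0, and was untested under a filter of 10 counts in every library. With Col-0 replicate 1 left out, its adjusted p was 0.0548 (edgeR). At an unadjusted p under 0.05, *ABI3* and *WOX5* were lower (*WOX5* is named after its value was seen), 2 of 6 beside 15.2% of all genes. The median log2 fold change of the 6 was −0.19, beside 0.0016 over all genes, with 5 of the 6 below 0. The 8 genes left untested had at most 15 counts in any library, with *LEC1* and *WOX8* at 0 counts in all 4 libraries.

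**Figure D5:**
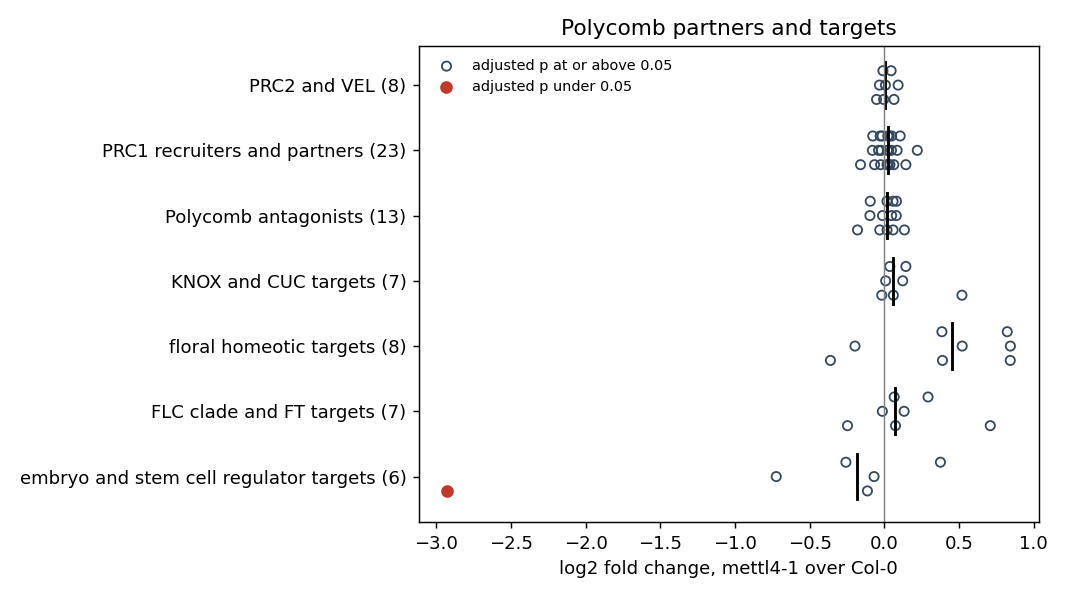
Log2 fold change (*mettl4-1* over Col-0) of each tested gene in 7 lists of Polycomb partners and targets, with the number tested in brackets, the list median as a black bar and filled points for an adjusted p under 0.05. The partner lists lie close to 0, the floral homeotic list has its median at 0.46, and *ABI3* is the 1 filled point.

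Seed storage genes moved in the same direction as *RING1A*. All 13 markers of stored seed protein and oil bodies were tested. Of these, 12 were lower in *mettl4-1* at a 1.5-fold change and an adjusted p under 0.05 (edgeR), with *EM6* as the exception. Over all genes, 0.637% were called at these thresholds in either direction. Markers near absence in *mettl4-1* could enter this test only through their Col-0 counts. With the stricter filter, 10 counts in each library, edgeR called 4 of the markers. limma-voom called 12 at an adjusted p under 0.05, DESeq2 at its defaults gave none of the 13 an adjusted p, and without its independent filtering it called 11. Their summed level was 5.30 and 5.23 CPM in *mettl4-1*, against 91.3 and 90.1 CPM in Col-0. *CRU3*, a cruciferin gene, had 30 and 37 counts in *mettl4-1* and 1268 and 1534 in Col-0, and *CRA1*, another, had 116 and 101 counts in *mettl4-1* and 1201 and 1443 in Col-0. The albumin gene *SESA4* had 3 and 2 counts in *mettl4-1*, against 388 and 497 in Col-0. *SESA3*, another albumin gene, was 1 of 4 markers with 0 counts in both *mettl4-1* libraries, and 0 of the 13 were at 0 in a Col-0 library. The *RING1A* difference was −118.1 CPM and that of the 13 summed −85.4 CPM. The part of seed RNA in the *RING1A* and *ABI3* values was not tested.

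The genes nearest to *RING1A* in pattern were sought over the 4 libraries by the Euclidean distance between centred log2 values (CPM plus 0.5). They were the albumin genes *SESA2* (distance 0.10) and *SESA4* (0.19) and the cruciferin gene *CRU2* (0.34), with *RING1A* itself at 3.65 from a flat profile. *SESA2* had 0 and 3 counts in *mettl4-1* and 352 and 423 in Col-0, and *CRU2* had 0 and 0 in *mettl4-1* and 402 and 504 in Col-0. These genes were thus lost almost fully in *mettl4-1*, whereas *RING1A* kept 485 and 506 counts, and their likeness depended on the value added before the log. With 0.1 CPM added instead, a choice made after the data were seen, 0 of the 3 nearest genes were the same. They were then AT1G64795 (distance 0.19) and 2 further albumin genes, *SESA5* (0.29) and *SESA1* (0.30). The nearest genes thus changed with the added value. In the edgeR fit their log2 fold changes were −7.66 (*SESA2*), −7.15 (*SESA4*), −11.7 (*CRU2*), −6.865 (AT1G64795), −9.26 (*SESA5*) and −9.39 (*SESA1*), beside −3.72 for *RING1A*. They passed the filter on low counts only through Col-0, so their nearness to *RING1A* rests on the added value. The search also matched on the fall by which *RING1A* was chosen.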

How the data were processed

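RNA from 14-day seedlings of *mettl4-1* and Col-0 was measured in 4 libraries. The deposited values are raw counts per gene. To make these counts, the authors used Cutadapt 3.5 for trimming and Hisat2 2.2.1 for mapping to TAIR10, filtered on mapping quality with SAMtools 1.13 and ran FeatureCounts 2.0.1. Which annotation was counted, and how strand, repeated and overlapping reads were treated, is not given in the sources used here, and could move reads between overlapping or duplicated genes. The counts of *mettl4-1* replicate 2 carry a name that differs from the sample label, and the label was followed. That name reads mettl4-2 replicate 1, and the column heading reads mettl4-1 replicate 1. Whether this library came from another line cannot be told from the sources used here. The source labels give 16 h of light for every library, with dark periods that run 8, 9, 10 and 11 h in sample order. Of these, 8 and 9 h belong to Col-0 and 10 and 11 h to *mettl4-1*, whereas the growth protocol gives 8 h for all. The serial values may not be real dark periods, which the sources used here do not settle. If they were real, a difference in dark period could not be told apart from genotype.

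Counts were fitted in R 4.3.3 with edgeR 4.0.16 (TMM scaling, the filterByExpr filter at 10 counts, quasi-likelihood fit on genotype alone). P-values were Benjamini-Hochberg adjusted over the 21673 genes tested, and 95% intervals were built from standard errors derived from the F statistic. The floor of 3 counts and the counting interval cover counting error only. Names, exon lengths and sequences came from the RefSeq annotation of TAIR10.1, whose nuclear coordinates were matched to the counts by locus identifier. *BMI1B* is *DRIP1* there, and *BMI1C*, *PWO1*, *ALP1*, *JMJ13* and *METTL4* have no symbol. RING fingers were found by the spacing of their cysteines and histidine in the longest coding sequence holding that pattern, because the longest *RING1A* sequence lacked it. The first match was taken, and in the BMI1 sequences a start at the next cysteine would also fit. Exons were compared with blastn. On simulated counts for this comparison over 21673 genes, edgeR recovered 98% of genes changed by 1 and 100% of those changed by 2 on the log2 scale, among 200 changed genes, with 20 false calls. The changed genes were drawn from those with an expected count above 50, so this says nothing of lower genes such as *AP1*, *PI*, *SEP2*, *CUC1* and *MAF5*.

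The members and lists were chosen with earlier results of these data known, and the lists were written from general knowledge. Named genes were the 7 PRC1 genes, *METTL4*, the KNOX genes, *MAF4*, *MAF5*, the 3 genes nearest to *RING1A*, and in each list up to 4 called at 1.5-fold and an adjusted p under 0.05, or otherwise the 2 with the widest change. Genes named outside this rule are *PI*, *SEP1*, *FLM*, *WOX5*, *LIF2*, *AL6*, *PWO1*, *REF6*, *JMJ30*, *RCA*, *EM6*, *LEC1*, *WOX8*, *UBP12*, *UBP13*, *TPX2*, *SESA1*, *SESA5*, AT1G64795 and AT5G44270. Alternatives were DESeq2-style size factors, other filters, DESeq2 1.42.0, limma-voom (limma 3.58.1), a replicate block, removal of organelle genes, other gene lengths and the omission of each library, where a lone library was assumed to vary like the other genotype. Some choices were made after the data were seen: DESeq2 at its defaults gave *METTL4* and most low genes no adjusted p, so it was also run without independent filtering, and the value added before the log in the search for genes like *RING1A* was varied. Neither the default nor the added DESeq2 result replaced the other.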

Additional observations from a re-analysis of the deposited data

How the results depend on the processing

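The *RING1A* log2 fold change of −3.72 was −3.736 to −3.7 with each library left out, and −3.72 under the 8 other alternatives. *METTL4*, *RING1B*, *BMI1A*, *BMI1B* and *LHP1* stayed on the same side of an adjusted p of 0.05 in every alternative that gave one. DESeq2 at its defaults gave none for *METTL4*, *RING1B*, *BMI1A*, *BMI1B*, *ABI3* and all 13 seed storage genes. *EMF1* lay between −0.01497 and 0.1585 with libraries left out and passed only without *mettl4-1* replicate 2, so that 0 to 1 PRC1 genes other than *RING1A* passed in these fits. The *RING1B* share of the RING1 level was 47.4% in *mettl4-1* and 5.51% in Col-0 with the longest transcript as the length, and 47.3% and 5.49% without a length correction. Leaving out a library gave 43.08% to 43.15% in *mettl4-1* and 4.365% to 4.975% in Col-0.

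Counts of calls over all genes moved more. At 1.5-fold and an unadjusted p under 0.05, DESeq2 gave 123 higher genes in place of 203, the removal of organelle genes gave 128 higher and 155 lower, and a filter of 10 counts in every library gave 76 lower in place of 148. At 1.5-fold and an adjusted p, 138 became 87 with that filter, 19 with DESeq2, 68 with DESeq2 without independent filtering (added after the data were seen), and 149 to 245 with a library left out. At an adjusted p alone, 614 became 930 without a filter, 374 with DESeq2, 358 with that added setting, and 342 to 1806 with a library left out. The cause was not tested, except that the filter of 10 counts drops genes near absence in 1 genotype, after which 4 seed storage genes were called in place of 12 and *ABI3* was untested. No pairing of the libraries by replicate number was seen, as the replicate differences of the genotypes correlated at 0.0042 over genes. Between the Col-0 libraries only 162 of 21599 nuclear genes differed beyond counting error, so this correlation could not exclude a pairing. The replicate block gave *RING1A* −3.718, *RING1B* 0.2323 (adjusted p = 0.175, edgeR) and 684 genes at an adjusted p alone, and it changed no call among the PRC1 genes. *BMI1C* is unresolved at this depth.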
